A study of Drosophila melanogaster with 6 samples.

Results

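The genes described here were chosen as those of the presynaptic machinery of the fruit fly. This comprises the synaptic vesicle and active zone proteins that dock, fuse and recycle transmitter vesicles. The list has 35 symbols chosen by function, of which 32 had a row in a table of 13858 genes. The other 3, *Syd-1*, *Rab3-RP* and *Sv2A*, had none under those symbols. Of the 32, *Amph* is known in flies chiefly from muscle, and *Syt4* serves retrograde signalling from muscle. RNA was sequenced from whole female L3b larvae, a late larval stage given as 96 h of age, grown at 25 °C and fed grape agar and yeast. In the knockdown group *Act5C*-GAL4, which is active in all tissues, drove UAS-Dctn1-RNAI, and the control group carried the driver only (labelled Actin control, and called driver control here), with 3 libraries in each group and 12 to 15 pooled larvae in each library. Knockdown libraries carry the replicate numbers 1 to 3, whereas control libraries carry 2 to 4. The study names *w1118* as its wild-type stock, the knockdown rests on 1 RNAi construct, and the control carries no RNAi construct. *Dctn1* encodes the p150 subunit of dynactin, the partner of the microtubule motor dynein. The comparison asks whether the messages of the release machinery differ in larvae with less *Dctn1*.

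At a chemical synapse, an action potential opens calcium channels clustered in the active zone, and calcium binding to synaptotagmin on a docked vesicle triggers fusion. Fusion is driven by SNARE proteins of the vesicle and plasma membranes, which zip together after priming by Unc-13. The membrane is then retrieved by clathrin and dynamin, uncoated and refilled. The larval neuromuscular junction of *Drosophila* is a classical preparation in which most of these genes were studied.

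The deposited values are FPKM, a fragment count divided by transcript length and library size, and so levels of different genes can be compared. Differences are log2 fold changes of FPKM + 0.1, knockdown over control, which understates the change of low genes, and p-values come from limma over 9978 genes with Benjamini-Hochberg adjustment. Read totals are unknown, since no counts were used. Over the 9978 tested genes, the median difference stood at 0.16 as deposited and at -0.01 after median-of-ratios scaling. This scaling divides each library by its typical ratio to the mean library. Both values are therefore given for the presynaptic genes. *Dctn1* itself had 7.33, 7.96 and 6.85 FPKM in knockdown libraries, against 15.26, 15.20 and 12.49 FPKM in control libraries (log2 fold change -0.94, adjusted p = 0.00737). This knockdown level was 51.5% of the control mean. By quantitative RT-PCR on L3b larvae of both sexes, the paper reports a strong reduction of *Dctn1*, to a lower level than this. Markers of neurons, glia, muscle, fat body and midgut were all present in these whole larvae, with 15 of 15, 10 of 10, 12 of 12, 7 of 7 and 7 of 7 listed genes past the filter on low values.

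None of the 32 genes was listed at 0 in any library, and all passed the filter on low values. *unc-13*, which encodes a vesicle priming factor, was the only one that passed the test, and it rose 1.72-fold in the ratio of mean FPKM. Of the 32 genes, 1 was higher and 0 were lower at an adjusted p under 0.05, against 5.06% of all tested genes higher and 1.65% lower. None passed the fold change threshold of 1 as well, which 2.91% of all genes did. At an unadjusted p under 0.05, 13 were higher and 0 lower, where 20.9% of all genes were higher. The median log2 fold change of the 32 was 0.28 with a range of -0.07 to 0.78, and 31 of 32 were above 0, as were 74.2% of all tested genes. In 20 of 32 every knockdown library was above every control library, against 28.8% of all tested genes, and in 0 it was below, against 4.66%. After scaling, the median was 0.10 with a range of -0.24 to 0.60, and 26 were above 0, as were 47.5% of all genes. Again *unc-13* alone passed the test (1.61% of all genes were higher and 1.6% lower), 0 genes passed the fold change threshold with it (2.34% of all genes), and at an unadjusted p under 0.05 *unc-13* and *stj* were higher (9.86% of all genes). The groups were then separated upwards in 6 genes, *unc-13*, *stj*, *Syt1*, *Syt7*, *Cadps* and *nwk*, and downwards in *lap* and *Dap160*, against 13.5% of all tested genes upwards and 13% downwards. The 95% interval of the difference included 0 for 19 genes as deposited and for 30 after scaling, and only the interval of *unc-13* reached 1.

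**Figure D1:**
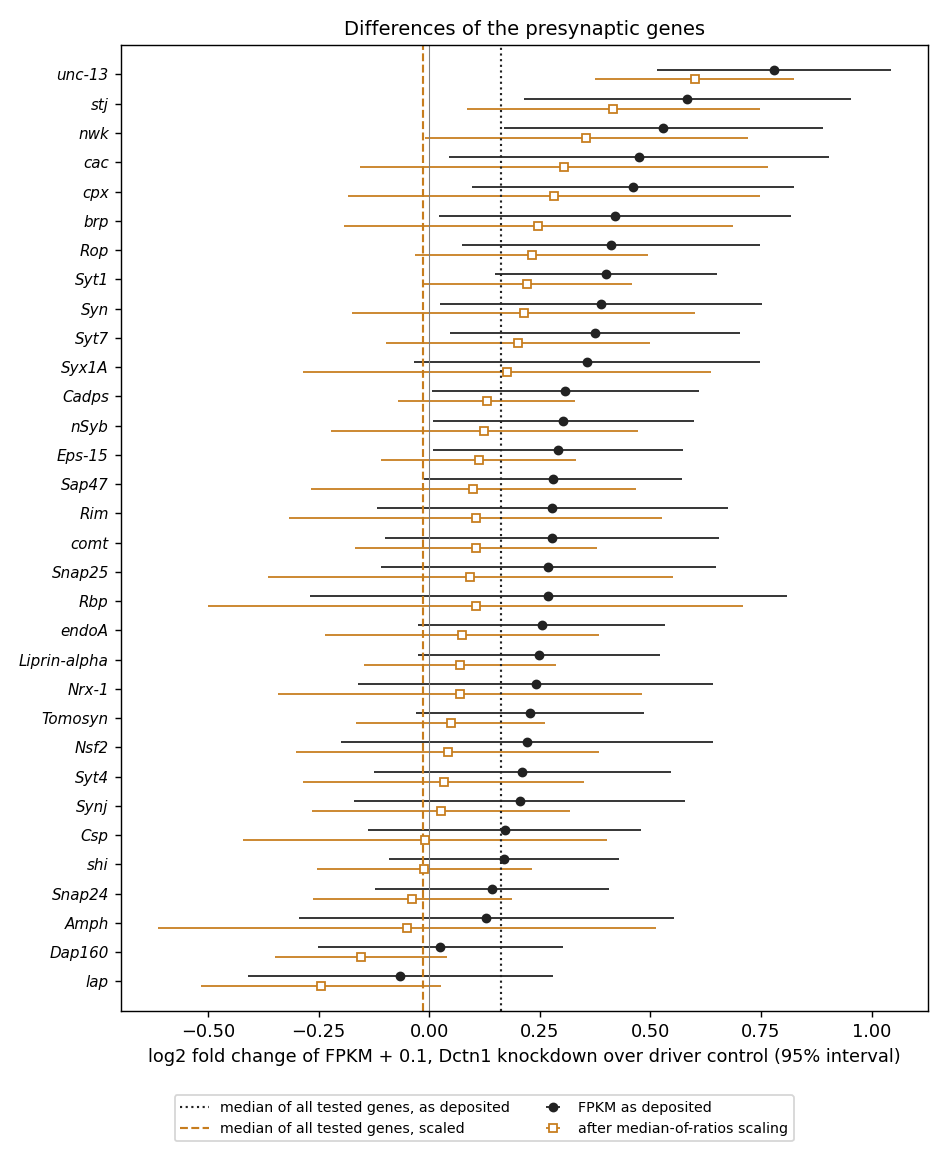
Log2 fold changes of the 32 presynaptic genes (rows), *Dctn1* knockdown over driver control, from FPKM as deposited (filled circles) and after median-of-ratios scaling (open squares), with 95% intervals and the median of all 9978 tested genes as dotted and dashed lines. *unc-13* leads with 0.78 as deposited and 0.60 scaled, and *lap* is last with -0.07 and -0.24.

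The levels of the 32 genes spanned a wide range. *Csp*, which encodes the vesicle chaperone cysteine string protein, was highest with 96.8 ± 4.92 FPKM in knockdown larvae and 86.4 ± 11.2 FPKM in control larvae (SD, n = 3 libraries each). *Rbp*, the RIM-binding protein, was lowest with 1.08 ± 0.223 FPKM in knockdown and 0.88 ± 0.19 FPKM in control larvae. In the control, 15 genes had means above 10 FPKM and 10 had means under 3 FPKM. Of the 31 pairs of neighbours in the order of control means, 24 had overlapping control ranges and so did not differ beyond their spread. The active zone genes were the lowest group, with control means of 0.88 to 8.72 FPKM for all 8. The SNARE group reached 28.4 FPKM with *Rop*, and the recycling group 44.96 FPKM with *Amph*. In bulk RNA from whole larvae, fewer cells of a type and less RNA per cell cannot be told apart.

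**Figure D2:**
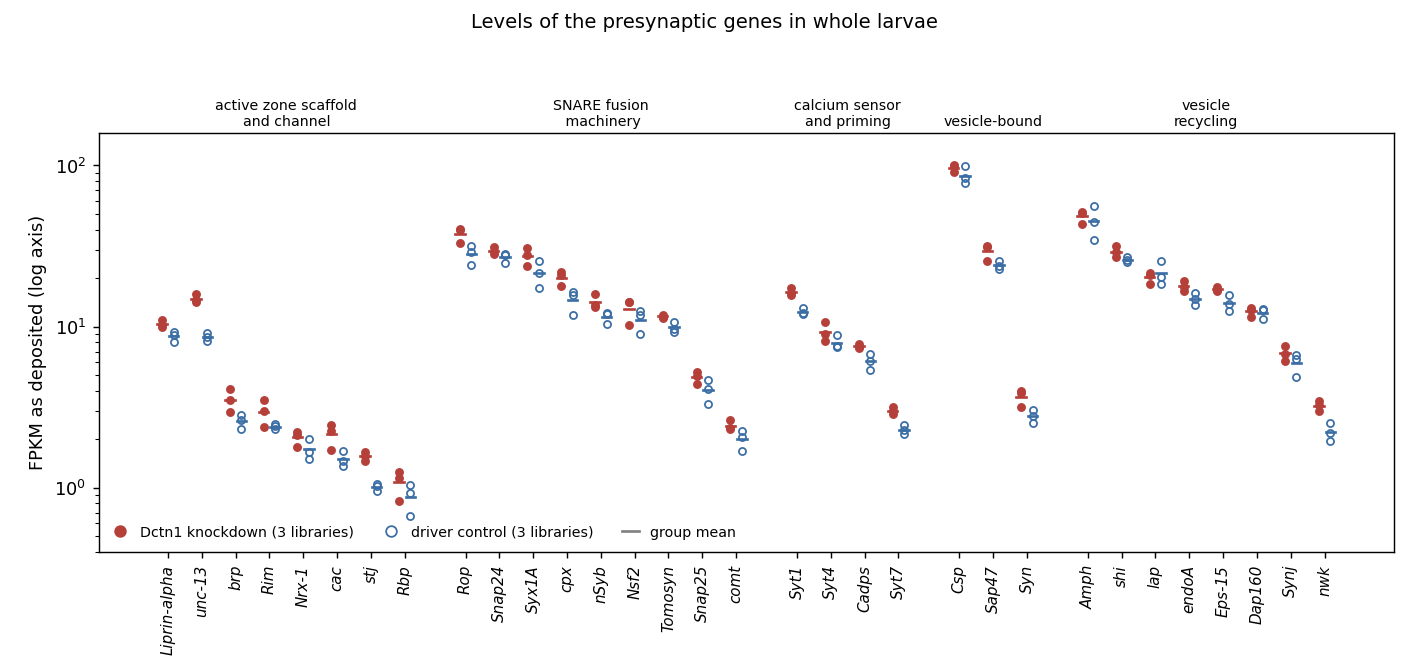
FPKM as deposited (log axis) of the 32 presynaptic genes in the 3 *Dctn1* knockdown libraries (filled circles) and the 3 driver control libraries (open circles), grouped by role, with bars at the group means. The genes lie between *Rbp*, with a control mean of 0.88 FPKM, and *Csp*, with 86.4 FPKM, and the circles of *unc-13* are well apart between the groups.

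Among the active zone genes, 8 were measured, and their median log2 fold change was 0.35 as deposited and 0.18 after scaling. All 8 were above 0 under both scalings, and 1, *unc-13*, passed the test. Unc-13 is the priming factor that opens syntaxin and makes docked vesicles ready for fusion. It had 14.71, 14.11 and 15.91 FPKM in knockdown libraries, against 9.17, 8.66 and 8.11 FPKM in control libraries. The lowest knockdown library was well above the highest control library, and the gap was larger than the spread within either group. Its log2 fold change was 0.78 (95% interval 0.51 to 1.04, adjusted p = 0.00924), and 0.60 after scaling (0.38 to 0.83, adjusted p = 0.0249). With any 1 library left out it was 0.73 to 0.82 as deposited with adjusted p of 0.0184 to 0.0387, so the call held in 6 of 6. With the scaling and a library left out it was 0.53 to 0.64 with adjusted p of 0.0524 to 0.0934, so the call was lost in each. When each library was centred on neuron markers, the difference was 0.55 with an adjusted p of 0.222.

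A ratio of 2 plain FPKM values within a library does not depend on the scaling between libraries. The counts of genes and the percentages below used FPKM + 0.1, and so are not fully free of it for low genes. These ratios were chosen after the values had been seen. The ratio of *unc-13* to each other presynaptic gene was first taken from FPKM + 0.1. It was higher in every knockdown library than in every control library for 28 of the 31 others, all but *Rbp*, *cpx* and *nwk*. The same held against 78.0% of the 9977 other tested genes. In plain FPKM the ratio to *cac* overlapped too, with 6.27 in knockdown replicate 2 and 6.37 in control replicate 3. Relative to *brp*, *unc-13* stood at 4.31 ± 0.623 in knockdown and 3.37 ± 0.341 in control larvae, and relative to *Rim* at 5.14 ± 0.882 in knockdown and 3.61 ± 0.109 in control larvae (SD, n = 3 each). For *stj* the ratio was higher in every knockdown library for 18 of 31 genes and 56.6% of the 9977 other tested genes, and for *nwk* for 11 of 31 and 38.5%, so both counts were near their background. The ratio was lower in every knockdown library for 12 of 31 genes for *lap* and for 12 of 31 for *Dap160*, against 30.1% and 25.95% of the other tested genes.

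**Figure D3:**
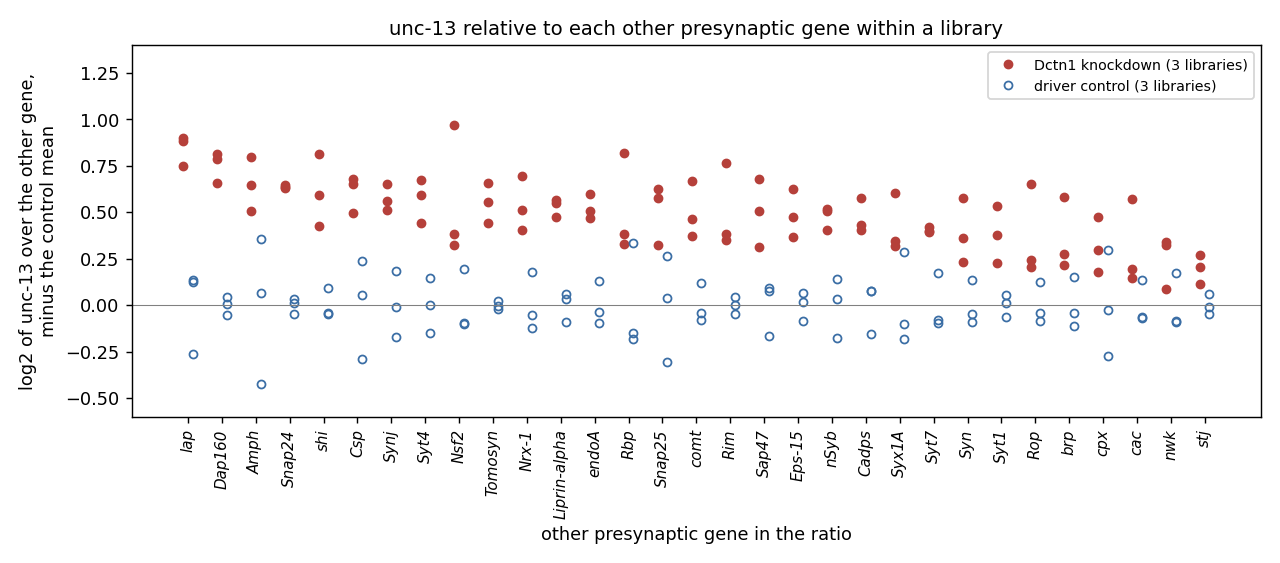
Log2 ratio of *unc-13* to each of the 31 other presynaptic genes within a library, minus the control mean of that ratio, in *Dctn1* knockdown (filled circles) and driver control libraries (open circles). The 2 sets of circles do not overlap for 28 genes and overlap for *Rbp*, *cpx* and *nwk*.

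The locus of *unc-13* holds other annotated RNAs. In BDGP6.54, the annotation used here, as the files name no build, it lies on the minus strand of chromosome 4, from 867824 to 912331. The deposited table gives it 34 transcripts, and the sequencing centre contributed 27 of these to the annotation. Its exons overlap 3 RNAs on the opposite strand, which cover 15.6% (asRNA:CR43425), 6.47% (CR43361) and 3.12% (asRNA:CR44029) of its exonic bases. None of the 3 has a row under these symbols, and whether the counting used the strand is not given in the sources used here. Their reads and those of *unc-13* may therefore not be told apart. On the same strand, the exons also overlap the annotated elements transib3 (3.94%), INE-1 (1.42%) and invader4 (0.64%). The part of these elements in the reads of *unc-13* was not tested. *Syt7* and *Cadps* lie on the same chromosome. The 76 tested genes of chromosome 4 had a median log2 fold change of 0.13 as deposited and -0.05 scaled. Of the 76, 2, *unc-13* included, were higher at an adjusted p under 0.05 as deposited, against 5.06% of all tested genes. Of the 76, 27 were separated upwards and 1 downwards as deposited, against 28.8% and 4.66% of all tested genes, and after scaling 8 were separated upwards and 15 downwards, against 13.5% and 13%.

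The calcium channel genes had lower levels. *stj* (straightjacket), the alpha2delta subunit that helps to place the channel, had 1.46, 1.57 and 1.66 FPKM in knockdown libraries, against 1.03, 1.05 and 0.95 FPKM in control libraries. These groups did not overlap, before or after scaling. The log2 fold change was 0.58 (95% interval 0.21 to 0.95, adjusted p = 0.072), and 0.42 after scaling (adjusted p = 0.174), which missed the threshold. *cac* (cacophony), the pore-forming subunit of the presynaptic channel, had 1.72, 2.25 and 2.46 FPKM in knockdown libraries, against 1.68, 1.36 and 1.47 FPKM in control libraries. Knockdown replicate 1 lay just above the highest control, and the other 2 were further away. Its log2 fold change was 0.47 (adjusted p = 0.163), and 0.30 after scaling with overlapping groups (adjusted p = 0.436).

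*brp* (bruchpilot) encodes the main scaffold of the electron-dense T-bar at fly active zones. It had 2.93, 3.49 and 4.12 FPKM in knockdown libraries, against 2.82, 2.31 and 2.62 FPKM in control libraries. The knockdown libraries were all higher, by little for replicate 1, and after scaling the groups overlapped. This amounted to a log2 fold change of 0.42 (adjusted p = 0.177), and 0.25 after scaling (adjusted p = 0.508). *Rim*, *Rbp* and *Nrx-1*, which encode 2 scaffold proteins and the adhesion protein neurexin, had log2 fold changes of 0.28, 0.27 and 0.24 with overlapping groups. *Liprin-alpha*, an organiser of active zone assembly, had 0.25 with separated groups as deposited. After scaling these 4 lay between 0.07 and 0.11.

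The 9 genes of the SNARE fusion machinery had a median log2 fold change of 0.28 as deposited and 0.11 after scaling, and 0 passed the test. The groups were separated upwards in 6 of them as deposited and in 0 after scaling. *Syx1A*, the plasma membrane syntaxin, had 23.61, 27.68 and 30.61 FPKM in knockdown libraries, against 25.55, 17.40 and 21.39 FPKM in control libraries. Control replicate 2 lay above knockdown replicate 1, so the groups overlapped. Its difference was 0.36 on the log2 scale (adjusted p = 0.235), and 0.18 scaled (adjusted p = 0.655). Exons of *Syx1A* overlap those of *eIF4EHP* on the same strand over 10.7% of its exonic bases in BDGP6.54. *nSyb*, the neuronal synaptobrevin of the vesicle membrane, had 13.64, 13.18 and 15.95 FPKM in knockdown libraries, against 11.93, 10.43 and 12.21 FPKM in control libraries. These were separated as deposited and overlapped after scaling. Its difference was 0.30 on the log2 scale (adjusted p = 0.188), and 0.12 scaled (adjusted p = 0.678).

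*Snap25*, the other neuronal SNARE of the plasma membrane, had 4.39, 5.21 and 4.92 FPKM in knockdown libraries, against 4.12, 3.31 and 4.65 FPKM in control libraries. Control replicate 4 was above knockdown replicate 1, and the log2 fold change was 0.27 (adjusted p = 0.341; 0.09 and 0.835 after scaling). Its paralogue *Snap24* was more abundant in whole larvae, at 6.15 ± 0.655 times *Snap25* in knockdown and 6.84 ± 1.54 times in control larvae (SD, n = 3 each). The ratio of *Snap25* to *Snap24* was 0.164 ± 0.018 in knockdown and 0.151 ± 0.035 in control larvae, a log2 difference of 0.13 (two-sided exact permutation test, p = 0.5, where 3 libraries against 3 allow no p below 0.1). *comt* and *Nsf2* encode 2 forms of NSF, the ATPase that takes spent SNARE complexes apart, and *Nsf2* was the more abundant. Their ratio, *comt* to *Nsf2*, was 0.191 ± 0.030 in knockdown and 0.181 ± 0.0075 in control larvae, a log2 difference of 0.06 (two-sided exact permutation test, p = 0.8). Neither ratio differed by more than the spread between libraries.

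The SNARE regulators *cpx* and *Rop* had the largest differences among these 9 genes. *cpx* (complexin), which clamps and promotes fusion, had 17.74, 20.89 and 21.71 FPKM in knockdown libraries, against 15.68, 11.85 and 16.49 FPKM in control libraries. The lowest knockdown library was above the highest control as deposited, but not after scaling. This gave a log2 fold change of 0.46 (adjusted p = 0.121), and 0.28 scaled (adjusted p = 0.474). *Rop* is the fly Munc18 that holds and chaperones syntaxin. It averaged 37.7 ± 4.20 FPKM in knockdown and 28.4 ± 3.78 FPKM in control larvae (SD, n = 3 each). Its log2 fold change was 0.41 (adjusted p = 0.132), and 0.23 scaled with overlapping groups (adjusted p = 0.309). The others, *comt*, *Tomosyn* (an inhibitor of SNARE assembly), *Nsf2* and *Snap24*, had 0.28, 0.23, 0.22 and 0.14, and 0.11, 0.05, 0.04 and -0.04 after scaling.

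Of the 4 genes for calcium sensors and priming, 0 passed the test, and the median log2 fold change was 0.34 as deposited and 0.17 after scaling. *Syt1* encodes the fast calcium sensor of the vesicle. It had 16.18, 17.25 and 15.69 FPKM in knockdown libraries, against 13.05, 11.96 and 12.15 FPKM in control libraries. The groups were well apart as deposited. After scaling they still did not overlap, but the lowest knockdown library, at 14.5 scaled FPKM, was close to the highest control library, at 14.2. Its log2 fold change was 0.40 (95% interval 0.15 to 0.65, adjusted p = 0.07), and 0.22 scaled (adjusted p = 0.287). *Syt7*, a synaptotagmin of high calcium affinity, averaged 3.01 ± 0.166 FPKM in knockdown and 2.30 ± 0.156 FPKM in control larvae (SD, n = 3 each). Its log2 fold change was 0.37 (adjusted p = 0.151), and 0.20 scaled (adjusted p = 0.425). *Cadps*, the CAPS protein that primes dense core vesicles, averaged 7.54 ± 0.24 FPKM in knockdown and 6.09 ± 0.70 FPKM in control larvae. The log2 fold change was 0.31 (adjusted p = 0.191), and 0.13 scaled (adjusted p = 0.441). *Syt7* and *Cadps* were separated after scaling too, by less than the spread within the groups, since the lowest knockdown library of *Syt7* was at 2.676 scaled FPKM and the highest control library at 2.669. The groups of *Syt4*, a synaptotagmin of retrograde signalling from muscle, overlapped (log2 fold change 0.21, 0.03 scaled).

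The 3 vesicle-bound proteins had log2 fold changes of 0.39 for *Syn*, 0.28 for *Sap47* and 0.17 for *Csp*, none of which passed the test. Synapsin, the product of *Syn*, tethers the reserve pool of vesicles. *Syn* averaged 3.68 ± 0.451 FPKM in knockdown and 2.78 ± 0.265 FPKM in control larvae (SD, n = 3 each; adjusted p = 0.174). The exons of *Syn* overlap *Timp*, on the opposite strand, over 4.29% of its exonic bases, and *Timp* itself was 18.3 ± 3.10 FPKM in knockdown and 11.6 ± 0.308 FPKM in control larvae (adjusted p = 0.0387, and 0.153 after scaling). After scaling, *Syn*, *Sap47* and *Csp* had 0.21, 0.10 and -0.01, with overlapping groups in each (adjusted p = 0.516 for *Syn*).

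The 8 recycling genes had a median log2 fold change of 0.19 as deposited and 0.01 after scaling, and 0 passed the test. *nwk* (nervous wreck), an F-BAR protein that restrains growth of the neuromuscular junction, had 2.99, 3.44 and 3.28 FPKM in knockdown libraries, against 2.51, 1.95 and 2.20 FPKM in control libraries. These groups were apart under both scalings, by little after scaling (2.68 against 2.57 scaled FPKM for the nearest libraries). The log2 fold change was 0.53 (95% interval 0.17 to 0.89, adjusted p = 0.0866), and 0.36 scaled (adjusted p = 0.268). *shi* (shibire), the dynamin that pinches vesicles off, had 29.07, 31.41 and 27.03 FPKM in knockdown libraries, against 25.75, 26.88 and 25.08 FPKM in control libraries. The gap between the groups was small and closed after scaling, where the log2 fold change was -0.01 (0.17 as deposited, adjusted p = 0.385).

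The 3 lowest differences of all 32 genes were also in the recycling group. *lap*, the AP180 protein that recruits clathrin and controls vesicle size, had 21.36, 18.47 and 21.04 FPKM in knockdown libraries, against 20.44, 25.49 and 18.25 FPKM in control libraries. The groups were interleaved as deposited, and *lap* was the only gene of the 32 below 0, at -0.07 (adjusted p = 0.817). After scaling the knockdown libraries were all lower, with -0.24 (95% interval -0.52 to 0.03, adjusted p = 0.301). *Dap160*, the intersectin scaffold that binds dynamin, had 13.07, 11.46 and 12.70 FPKM in knockdown libraries, against 12.88, 12.65 and 11.08 FPKM in control libraries. Here too the groups overlapped as deposited, with 0.02 (adjusted p = 0.917), and were separated downwards after scaling, with -0.15 (adjusted p = 0.357). *Amph*, amphiphysin, which in flies is known chiefly from the T-tubules of muscle, had 42.99, 50.57 and 51.76 FPKM in knockdown libraries, against 44.68, 34.57 and 55.63 FPKM in control libraries. The controls enclosed all knockdown libraries, and the log2 fold change was 0.13 (adjusted p = 0.689; -0.05 scaled). The remaining 3, *endoA* (endophilin, listed as EndoA), *Eps-15* (an endocytic scaffold) and *Synj* (synaptojanin, a lipid phosphatase of uncoating), had 0.25, 0.29 and 0.20, and 0.07, 0.11 and 0.03 after scaling.

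The order of the libraries within a group was uneven for these genes. Knockdown replicate 1 was the lowest of its group for 17 of 32 presynaptic genes, but for 18.9% of all tested genes, and knockdown replicate 3 was the highest for 19 of 32, but for 23.4% of all tested genes. In the control, replicate 2 was the highest for 18 of 32 (36.0% of all tested genes). The median log2 deviation of the 32 genes from the mean of the 6 libraries was 0.07, 0.18 and 0.23 in knockdown replicates 1, 2 and 3, against -0.08, -0.19 and -0.19 in control replicates 2, 3 and 4. The 15 neuron markers had -0.04, 0.13 and 0.22 in knockdown replicates, against -0.02, -0.18 and -0.13 in control replicates, and so had a like order. Their summed level was 158.5 to 187.6 FPKM in knockdown and 147.2 to 150.5 FPKM in control larvae. Of the 15, 0 passed the test, all were detected, and 2 were separated upwards as deposited (28.8% of all tested genes). The median log2 fold change of the neuron markers was 0.20 as deposited and 0.02 scaled. All 15 were above 0 as deposited (74.2% of all tested genes), and 10 were after scaling (47.5%). The 12 muscle markers, also 0 past the test, had -0.10, 0.11 and 0.20 in knockdown replicates, against -0.01, -0.44 and 0.25 in control replicates. The order of the knockdown replicates was thus the same in muscle markers, and also in the 28 other release genes described next, with 0.01, 0.11 and 0.18. The part of these markers in the differences was not tested. When each library was centred on the neuron markers, the median over the presynaptic genes was 0.05 with 22 of 32 above 0, against 38.4% of all tested genes, and 0 passed the test (1.57% of all genes were higher).

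**Figure D4:**
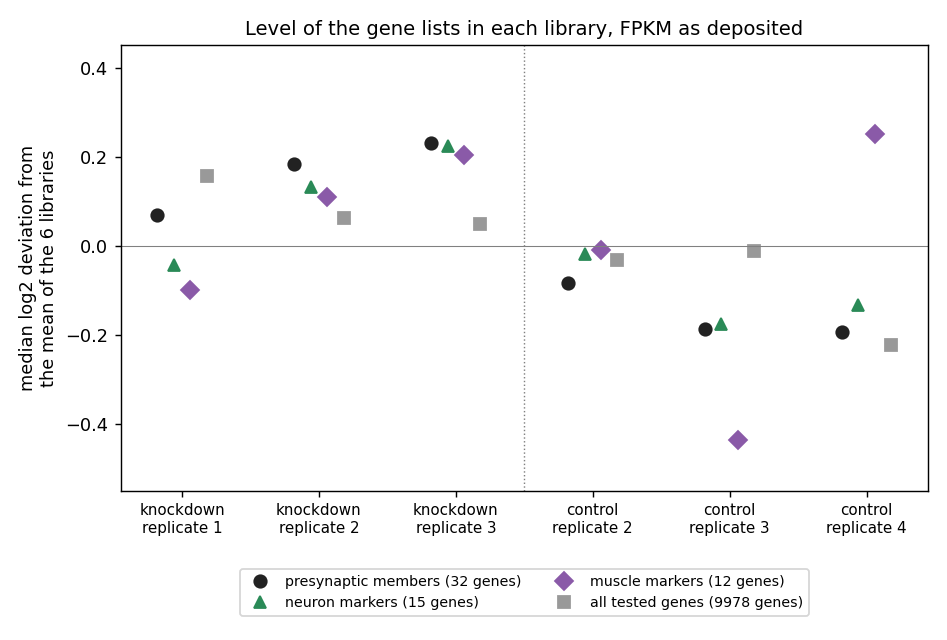
Median log2 deviation from the mean of the 6 libraries, FPKM as deposited, for the 32 presynaptic genes, 15 neuron markers, 12 muscle markers and all 9978 tested genes, in each *Dctn1* knockdown and driver control library. The presynaptic genes lie above 0 in the knockdown libraries (0.07, 0.18 and 0.23) and below 0 in the control libraries (-0.08, -0.19 and -0.19), and the neuron markers lie between -0.04 and 0.22 in knockdown and between -0.18 and -0.02 in control libraries.

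Other genes of release and recycling had smaller medians. Among 28 tested genes of release and synapse assembly (such as *Rab3*, *Fife* and the neuroligins), the median log2 fold change was 0.17 as deposited and -0.00 scaled, and 0 were called in either direction, with 2 higher at an unadjusted p under 0.05. These include *RhoGAP100F*, for which RefSeq gives Syd-1 as a synonym, with 0.17 (adjusted p = 0.568). Among 23 further endocytic genes (such as clathrin and the AP-2 subunits), the median was 0.15 and -0.03, and 0 were called, with 3 higher at an unadjusted p under 0.05. For both lists, the share of all tested genes higher at that unadjusted threshold was 20.9%. Glial markers had a median of 0.35 over 10 genes (0.17 scaled), with 8 separated upwards and 1 downwards as deposited, and 4 upwards and 2 downwards after scaling. Of all tested genes, 28.8% were separated upwards and 4.66% downwards as deposited, and 13.5% and 13% after scaling. *Gs2* and *Gli* had the values below 0, at -0.52 and -0.31 (adjusted p = 0.263 and 0.197). Of the 10, *Eaat1*, a glutamate transporter of glia, passed the test as deposited, at 0.70 (adjusted p = 0.0184), but not after scaling, at 0.52 (adjusted p = 0.101). Of 7 midgut markers, 3 fell, *betaTry* by 2.20, *Amy-p* by 1.98 and *Jon25Bi* by 0.90 on the log2 scale (adjusted p = 0.00147, 0.00439 and 0.0223), and they passed after scaling too. Of all tested genes, 1.65% were lower as deposited and 1.6% after scaling. The midgut list had a median of -0.57 (-0.75 scaled). *Jon65Aiv*, *Mal-A1* and *alphaTry* had -0.57, -0.21 and -0.10 (adjusted p = 0.174, 0.488 and 0.916), and *lab* was above 0 at 0.37 (adjusted p = 0.238). The 7 fat body markers had a median of -0.09 (-0.27 scaled) and ran from -2.67 (*Fbp1*, adjusted p = 0.344) to 1.21 (*Lsp1alpha*, adjusted p = 0.0539). *Fbp1* varied widely, with 1415, 47.31 and 638.62 FPKM in knockdown libraries, against 2233.5, 4093.8 and 1199.2 FPKM in control libraries. Of the 7, 3 were separated upwards and 0 downwards as deposited, against 28.8% and 4.66% of all tested genes. After scaling, 3 were separated upwards and 2 downwards, against 13.5% and 13%. Among the 7, 1 passed the test, the storage protein gene *Lsp1beta*, which rose by 0.99 as deposited (adjusted p = 0.036) and had 0.81 after scaling (adjusted p = 0.179).

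The presynaptic genes differ from most genes in structure. They have a median of 7.5 listed transcripts against 2 for all tested genes, and 23 of 32 have a transcript that the sequencing centre contributed, against 20.3% of all tested genes. Their median span is 14.3 kb in BDGP6.54 against 2.76 kb. The 1281 tested genes at least as long as that median had a median log2 fold change of 0.16 (-0.01 scaled), the same as all tested genes.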

How the data were processed

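RNA-seq of 6 libraries was analysed. Poly(A) RNA was selected, and the authors deposited FPKM values per gene and library, which they had made with RSEM from HISAT2 alignments of reads cleaned by SOAPnuke, without counts. Their submission notes also name StringTie, Cufflinks, GATK and DESeq2 without a role. Versions and genome build are not given in the sources used here. The labels name an Illumina instrument and larvae 96 h after hatching, whereas the paper names the DNBseq platform and counts the age from egg laying.

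A model with the condition as its term was fitted in limma (version 3.58.1, under R 4.3.3) to log2(FPKM + 0.1), with a trended and robust variance. Genes needed an average of 0.5 FPKM or more over the 6 libraries, which left 9978. P-values were two-sided and adjusted over all 9978 by the Benjamini-Hochberg procedure, with calls at an adjusted p under 0.05. Each library is a biological replicate per the labels. Values of every library are given for genes past the test, for the 3 highest and 3 lowest differences, and for *Syx1A*, *nSyb*, *Snap25*, *Syt1*, *brp*, *cac*, *cpx* and *shi*. From the other lists, genes past the test are named, at most 3 in each direction, and further genes are named to show the spread of a list. The members and lists were chosen with earlier results of these data known. Alternatives comprised pseudocounts of 1 or 0.01, dropping the filter or raising it to 5 FPKM, scaling by median-of-ratios or quantiles, centring on neuron markers, other variance estimates, sample weights, a replicate block and each library left out. Gene IDs were matched to BDGP6.54 for 13751 of 13858 genes. Python 3.11.15, pandas 2.3.3, NumPy 2.4.6 and Matplotlib 3.10.9 were used for tables and plots.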

Additional observations from a re-analysis of the deposited data

How the results depend on the processing

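Of 693 recomputed differences of single presynaptic genes, 620 kept their sign and their side of the threshold, 62 changed sign, 7 lost a call (all *unc-13*) and 4 gained one. Every sign change was in a gene that did not pass the test. The number of genes higher at an adjusted p under 0.05 was 1, and it was 0 when centred on neuron markers, 2 without the variance trend (*unc-13* and *stj*) and 4 with sample weights (*unc-13*, *stj*, *Syt1* and *Syt7*, where 13.5% of all genes were higher). It was 0 to 1 with a library left out, where 0 came only with the scaling added. Without the variance trend, the share of all genes that were higher was not counted, so the gain of *stj* has no background beside it. The median over the 32 genes was 0.10 after median-of-ratios scaling, 0.12 after quantile normalization and 0.047 centred on neuron markers, and 0.048 to 0.33 with a library left out. A sign change of a difference occurred after median-of-ratios scaling in *Snap24* (-0.038), *Csp* (-0.0099), *shi* (-0.011), *Dap160* (-0.15) and *Amph* (-0.051), and after quantile normalization in *Dap160* (-0.14). Centred on neuron markers it occurred in *Snap24* (-0.089), *Tomosyn* (-0.0035), *Nsf2* (-0.011), *Syt4* (-0.020), *Csp* (-0.060), *shi* (-0.062), *Synj* (-0.026), *Dap160* (-0.21) and *Amph* (-0.10), and with sample weights in *Dap160* (-0.046). The log2 ratio of *comt* to *Nsf2* was -0.0070 with a pseudocount of 1.

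With a library left out, with or without scaling, the difference was -0.036 to 0.42 for *Rim*, -0.095 to 0.43 for *Rbp*, -0.054 to 0.35 for *Nrx-1*, -0.0039 to 0.49 for *Syx1A*, -0.077 to 0.38 for *Snap25*, -0.10 to 0.18 for *Snap24*, -0.00098 to 0.28 for *Tomosyn*, -0.051 to 0.38 for *Nsf2*, -0.10 to 0.30 for *Syt4*, -0.12 to 0.27 for *Csp*, -0.080 to 0.22 for *shi*, -0.028 to 0.32 for *endoA*, -0.30 to 0.068 for *lap*, -0.073 to 0.29 for *Synj*, -0.19 to 0.081 for *Dap160* and -0.27 to 0.30 for *Amph*. The log2 ratio was -0.027 to 0.30 for *Snap25* to *Snap24* and -0.063 to 0.16 for *comt* to *Nsf2*. The cause was not tested.

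Knockdown and control share the replicate numbers 2 and 3, and the labels do not say what a number stands for. Deviations of same-numbered libraries correlated at 0.40 and 0.14 over 9978 genes, but knockdown replicate 1 and control replicate 3 at 0.63. With the replicate block, knockdown replicate 1 and control replicate 4 had no library of the same number in the other group. The differences of that fit therefore rest on replicates 2 and 3 alone and do not check all 6 libraries. In it, 1 presynaptic gene was higher, the median was 0.34, *Nsf2* had -0.00025 and *Dap160* -0.081.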
